A study of Mus musculus with 3 samples.

Results

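The promoters of 9 imprinted genes that are methylated on the maternal allele were examined in mouse embryonic stem (ES) cells, out of 21416 autosomal transcription start sites (TSS). The other 21407 TSSs were those of protein-coding genes, with a single TSS per gene. The imprinted genes were Peg3, Mest, Peg10, Snrpn, Nnat, Plagl1, Impact, Zrsr1 and Kcnq1ot1, taken from a list and not from their values. Each was represented by the CpGs within 2 kb of its TSS, 1222 CpGs in all. Methylation was counted in 3 libraries. Wild type ES cells of the strain Mixed (129-C57Bl/6) gave 2 replicates of CTCF ChIP-BisSeq, that is, bisulfite sequencing of the DNA that an antibody against CTCF pulls down, and each library pooled the DNA of 5 immunoprecipitations. Whole genome bisulfite sequencing (WG-BisSeq) was done once with REST knockout ES cells of the strain Black Agouti 129, which lack the repressor REST and were not immunoprecipitated. All cells were cultivated on feeder cells or gelatine in medium with serum and LIF. ChIP-BisSeq and WG-BisSeq cells therefore differed in genotype, strain and assay together, and these cannot be told apart.

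Imprinted genes are expressed from 1 parental allele. At the genes described here the promoter CpG island is methylated in the oocyte, and after fertilization the zinc finger protein ZFP57 and its partners keep that methylation on the maternal copy while the paternal copy stays unmethylated and is transcribed. In a mixture of both alleles such an island is intermediately methylated, unlike most CpG islands, which are unmethylated. CTCF, a DNA binding factor that organizes chromatin, binds several imprinted regions on the unmethylated allele. The counts carry no allele information, so that a methylated observation could not be assigned to a parent.

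The replicates of ChIP-BisSeq hold 13411280 and 25262179 observations, and the REST knockout library 273375318. An autosomal CpG was covered on average 0.647 times in replicate 1, 1.22 times in replicate 2 and 13.2 times in the REST knockout library. As a check of the knockout label, the exons of Rest were examined. In the REST knockout library the third exon block of Rest (chr5:77696957-77697848, mm9) had 12 observations at 3 of its 41 CpGs, whereas 37 of these CpGs were covered in ChIP-BisSeq replicate 2 and 11 in replicate 1. The first block, at the promoter, had 1160 observations at 39 of 39 CpGs in the REST knockout library. In that library the second block had 3 observations at 3 of 35 CpGs. Replicate 2 covered 35 CpGs of the second block but replicate 1 covered 0, so low coverage there was not particular to the knockout. The fourth and sixth blocks had 5 of 5 and 104 of 108 CpGs covered in the REST knockout library. Markers of ES cells could not be checked, since expression was not measured in these libraries.

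The sequences below show the stretches that carry the results on CTCF and on ZFP57, read from mm9 on the strand of each gene, 5′ to 3′. The first set holds the bins of 200 bp most covered in ChIP-BisSeq at the 3 promoters with CTCF enrichment, without bases of annotated exons and with CpGs, the measured sites, in capitals. The Peg3 bin (chr7:6681832-6682031, minus strand) lies in an intron of Peg3. The Mest bin (chr6:30687050-30687249, plus strand) lies upstream of the TSS used here and in an intron of longer Mest transcripts. The Peg10 stretch (chr6:4697205-4697305, plus strand) is the gap of 101 bp between the TSS of Peg10 and that of Sgce, which is transcribed in the opposite direction, and the rest of that bin overlaps the first exon of Sgce.
Peg3 CTCF bin: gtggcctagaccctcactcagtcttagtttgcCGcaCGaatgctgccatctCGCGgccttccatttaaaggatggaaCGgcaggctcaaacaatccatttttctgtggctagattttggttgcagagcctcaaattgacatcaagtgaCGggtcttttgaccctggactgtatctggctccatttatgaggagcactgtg
Mest CTCF bin: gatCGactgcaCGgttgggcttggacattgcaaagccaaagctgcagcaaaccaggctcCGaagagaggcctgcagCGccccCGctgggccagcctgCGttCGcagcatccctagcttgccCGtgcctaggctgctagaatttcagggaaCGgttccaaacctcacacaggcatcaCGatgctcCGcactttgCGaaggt
Peg10 CTCF bin: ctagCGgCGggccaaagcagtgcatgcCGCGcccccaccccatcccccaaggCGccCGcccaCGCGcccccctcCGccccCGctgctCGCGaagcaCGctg

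The second set shows, at Peg3, Kcnq1ot1, Plagl1 and Snrpn, the 150 bp outside GENCODE vM1 exons with the most matches to TGCCGC. This is the sequence that ZFP57 recognizes when its CpG is methylated, and matches on either strand are in capitals. The Mest stretch, with 2 matches, is not shown, and no stretch was taken at Impact. The Peg3 (chr7:6682754-6682903, minus strand), Plagl1 (chr10:12810831-12810980, plus strand) and Snrpn (chr7:67149163-67149312, minus strand) stretches are intronic. The Kcnq1ot1 stretch (chr7:150481538-150481687, minus strand) lies in the transcribed part of Kcnq1ot1, within an intron of Kcnq1.
Peg3 ZFP57 stretch: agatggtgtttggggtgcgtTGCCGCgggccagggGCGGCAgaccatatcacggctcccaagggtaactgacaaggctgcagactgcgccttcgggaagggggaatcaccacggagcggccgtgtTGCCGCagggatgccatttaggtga
Kcnq1ot1 ZFP57 stretch: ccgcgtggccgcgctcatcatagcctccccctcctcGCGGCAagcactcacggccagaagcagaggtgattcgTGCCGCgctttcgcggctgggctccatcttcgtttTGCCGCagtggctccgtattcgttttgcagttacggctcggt
Plagl1 ZFP57 stretch: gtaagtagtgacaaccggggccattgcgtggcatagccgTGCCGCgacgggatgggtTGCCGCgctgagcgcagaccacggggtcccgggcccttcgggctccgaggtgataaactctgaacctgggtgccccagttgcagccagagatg
Snrpn ZFP57 stretch: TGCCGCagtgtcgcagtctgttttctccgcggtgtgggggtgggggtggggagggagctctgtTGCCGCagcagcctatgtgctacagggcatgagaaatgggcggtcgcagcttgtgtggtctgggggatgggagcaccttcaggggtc

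Each promoter contained a CpG island by sequence, of 29 CpGs at Snrpn to 139 CpGs at Peg10. In the REST knockout library the methylation level of these islands lay between 3.39% and 26.7%, with a median of 19%. Islands at other TSSs had a median of 5.5% and an upper quartile of 10.3%. Thus 8 of the 9 islands lay above the median of other islands and 7 above their upper quartile, and 0 lay above their 95th percentile of 73.4%. No island reached the range of 30% to 70% set for intermediate methylation (0 of 9), a range that holds 6.65% of 15346 other islands. At a limit of 10%, chosen after the data were seen, 7 of 9 islands passed beside 25.6% of other islands. With 1 library, these values have no replicate check, and their exact 95% Clopper-Pearson intervals cover counting error only. The intervals are also too narrow, since observations on the same read are not independent.

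**Figure D1:**
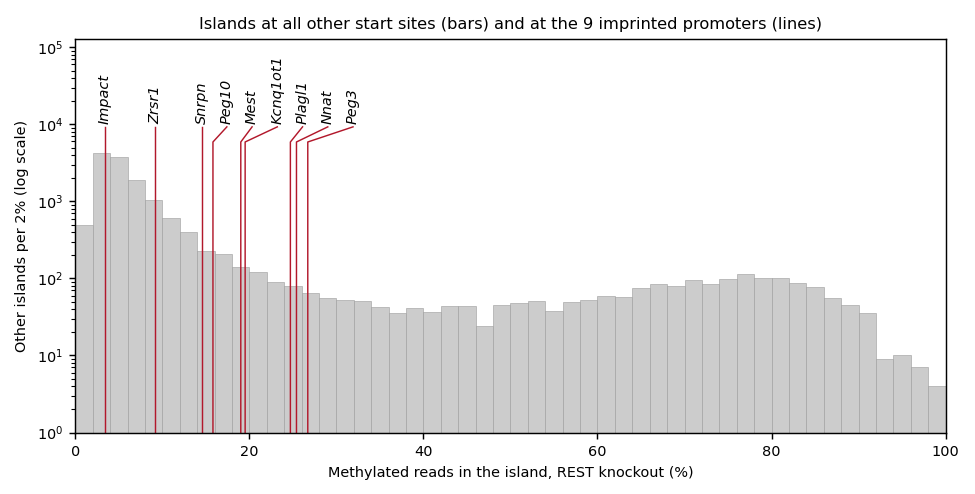
Methylation level of CpG islands in the REST knockout library (x axis, percent of methylated observations) against the number of other islands per 2% (y axis, log scale). Bars are the 15346 islands at other TSSs and red lines the 9 imprinted promoters, which lie between 3.39% (Impact) and 26.7% (Peg3). Impact lies within the main peak of unmethylated islands and Zrsr1 (9.17%) on its right flank, and the others lie farther right.

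The zinc finger genes Peg3 and Plagl1 and the membrane proteolipid gene Nnat had the highest islands. The Peg3 island (chr7:6681852-6683248) was methylated at 26.7% (24.8% to 28.7%, 2005 observations). Nnat, located in an intron of Blcap, followed with 25.4% (22.4% to 28.6%, 775 observations) and Plagl1, a transcription factor gene, with 24.7% (22.9% to 26.6%, 2147 observations). The intervals of these 3 islands overlap, so that their order was not resolved.

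Kcnq1ot1, a long noncoding RNA that runs antisense to Kcnq1 and silences its neighbours, and Mest, which encodes a hydrolase-like protein, came next. Their islands were methylated at 19.5% (18.2% to 20.8%) and 19% (16.9% to 21.1%). The retrotransposon-derived gene Peg10 reached 15.8% (14.5% to 17.1%), and Snrpn, which encodes a splicing protein, 14.5% (11.4% to 18%). From Kcnq1ot1 to Snrpn, the intervals of neighbours in this order overlap.

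The lowest islands were those of Zrsr1, a splicing factor-related gene in an intron of Commd1, with 9.17% (8.33% to 10.1%), and of Impact, a regulator of translation, with 3.39% (2.96% to 3.88%). The Impact island begins 827 bp downstream of its TSS and was cut at the edge of the window, 2000 bp downstream. The part counted was methylated below the median of other islands, with 21.6% of them lower. Impact and Zrsr1 were also the most deeply covered, with 64.8 and 42.5 observations per CpG, where the median of other islands is 25 and their 95th percentile 44.4. The other 7 islands had 11.2 to 36.9 observations per CpG. The part of this coverage in the low levels was not tested.

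The standard deviation between the CpGs of an island was close to that of counting error at 4 promoters and larger at 5. Neighbouring CpGs share reads, so this comparison can miss a gradual change along an island. Among CpGs covered at least 10 times, 0 in any of the 9 islands was methylated above 80%. The standard deviation between the 99 CpGs of the Kcnq1ot1 island was 7.19 percentage points, equal to the 7.19 that counting alone gives around a common level. At Peg3 it was 9.83 where counting gives 9.06, at Nnat 10.4 beside 10.9 and at Impact 2.42 beside 2.28. Plagl1 was the most uneven, with 13 percentage points beside 8.09, and its CpGs ranged from 0% to 50%. Mest had 10.4 beside 8.3, Peg10 9.75 beside 7.8, Snrpn 9.84 beside 7.74 and Zrsr1 6.69 beside 4.65. Along the Plagl1 promoter, the level was 27% of 1838 observations in the first 500 bp downstream of the TSS and 8.16% of 245 in the next 500 bp. Along Peg3 it was 67.7% of 133 observations between 1000 and 500 bp upstream, 29.9% of 1153 in the first 500 bp downstream and 20.7% of 579 in the next 500 bp. Along Kcnq1ot1 it was 22.8% of 1330 observations between 500 and 1000 bp downstream and 15.4% of 1444 in the next 500 bp. The islands of Peg3 and Kcnq1ot1 were thus not uniform along their length.

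**Figure D2:**
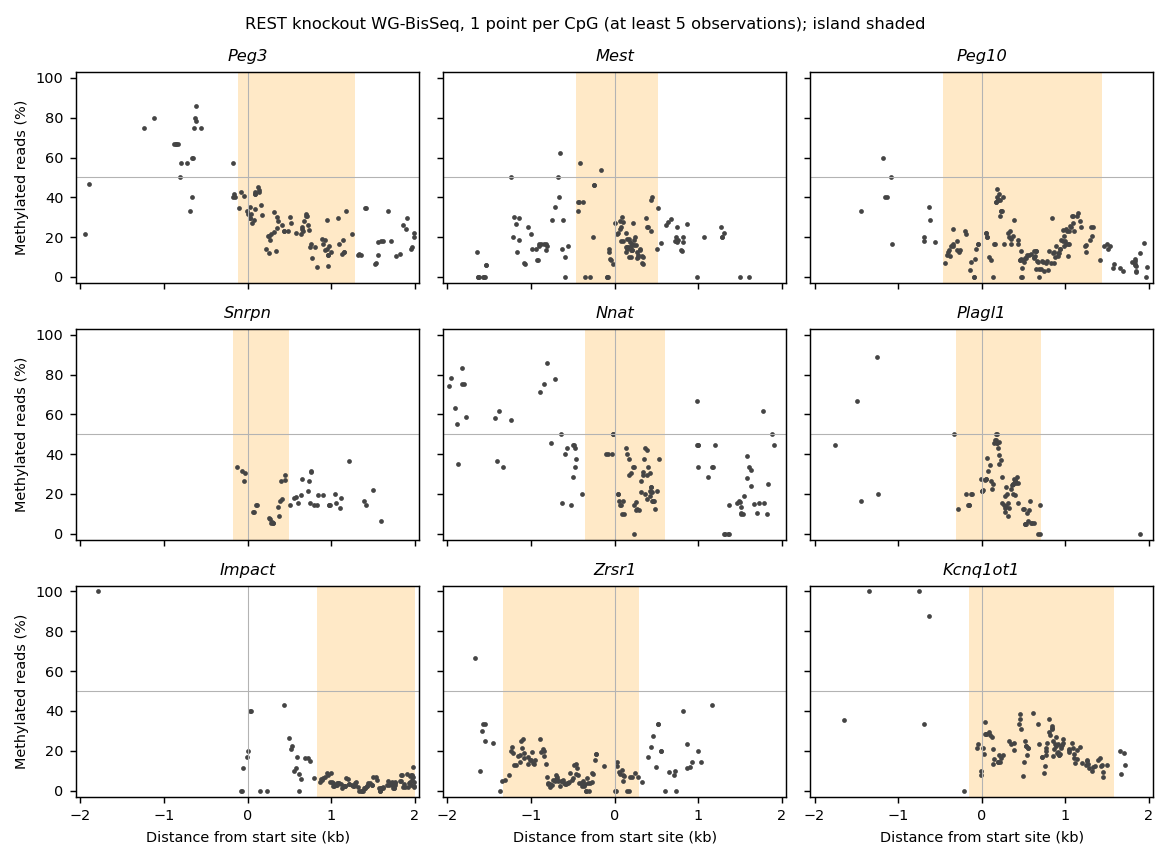
Methylation of single CpGs in the REST knockout library (y axis, percent of methylated observations) against the distance from the TSS in kb, positive downstream (x axis), for the 9 promoters. Each point is a CpG with at least 5 observations, the shaded area is the island and the grey line marks 50%. Island CpGs lie mostly below that line, at 5% to 45.3% in Peg3 and at 0% to 11.6% in Impact for CpGs covered at least 10 times.

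Outside the island, CpGs of the same window were more methylated, with intervals that do not overlap, at Plagl1 (57.7%, 142 observations), Nnat (36.6%), Kcnq1ot1 (34.4%), Peg3 (32.5%), Impact (19%) and Zrsr1 (17.8%). At Peg3 the limits nearly meet, at 28.7% inside and 29.2% outside, so with intervals that are too narrow this separation is uncertain. The level outside was 19.9% at Snrpn, 18.3% at Mest and 12.4% at Peg10, with intervals that overlap those of their islands. Over the whole windows of 2 kb on each side, levels ranged from 4.33% at Impact to 31.4% at Nnat, beside a median of 15.1% over other windows. The Impact level depends on the deeply covered island, and within 1 kb of the TSS it was 11.2%. The alternative starts of Peg3, Mest, Snrpn and Plagl1 that lie over 4 kb away had windows methylated between 40.4% and 73.6%, of which those of Mest were at 73.4%, 40.4% and 61%.

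Genes next to these promoters in the same imprinted domains gave a comparison within domains. Of 20 such neighbours, 17 had windows that did not overlap a promoter above, and the 15 of these with an island had a median of 6.84%, from 2.26% to 28.9%. Islands at 30% to 70% numbered 0 of these 15, and 4 reached 10%. Of 3 loci methylated on the paternal allele, the H19 island was at 44.9% (39.9% to 50%) and the Meg3 island at 51.4% (43.8% to 59%), above each maternally methylated island. Rasgrf1 was at 9.5% in the island of its promoter. At these 3 loci only CpGs within 2 kb of the TSS were counted, so a methylated region farther away was not measured. For comparison, the other windows with the highest share of island CpGs at 30% to 70% were those of Slc15a3, 4931409K22Rik, Adck5, Foxs1, Olfr1349, Sv2a, Tex12 and Sfi1, in which 88.9% to 95.7% of CpGs covered at least 10 times lay in that range. At the imprinted promoters this share reached at most 31.5%, at Peg3.

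CTCF ChIP-BisSeq showed a peak of coverage at 3 of the 9 promoters, Peg3, Mest and Peg10. A bin of 200 bp was called enriched when its coverage per CpG was at least 4 times the library mean in both replicates, and 26.3% of other windows contain such a bin, so that 3 of 9 is near the background. The Mest peak, centred 900 bp upstream of the TSS, reached 34.6 times the mean in replicate 1 and 19 times in replicate 2. The Peg3 peak, 1200 bp downstream, reached 22.9 and 13.4 times, and the Peg10 peak, 100 bp upstream, 22.1 and 18.4 times. At the same bins the REST knockout library, which was not immunoprecipitated, had 1.66, 1.51 and 0.756 times its mean.

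The other 6 promoters had no such peak. By the lower of the replicates Nnat came closest, with 3.09 and 2.95 times the mean, followed by Kcnq1ot1 with 4.17 and 2.7, and Snrpn had the least with 1.03 and 0.546. The REST knockout library had 1.12, 2.59 and 3.2 times its mean at these bins. This count depended on replicate 2. Without it 7 of 9 promoters and 58.6% of other windows had an enriched bin, whereas without replicate 1 the 3 promoters remained.

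**Figure D3:**
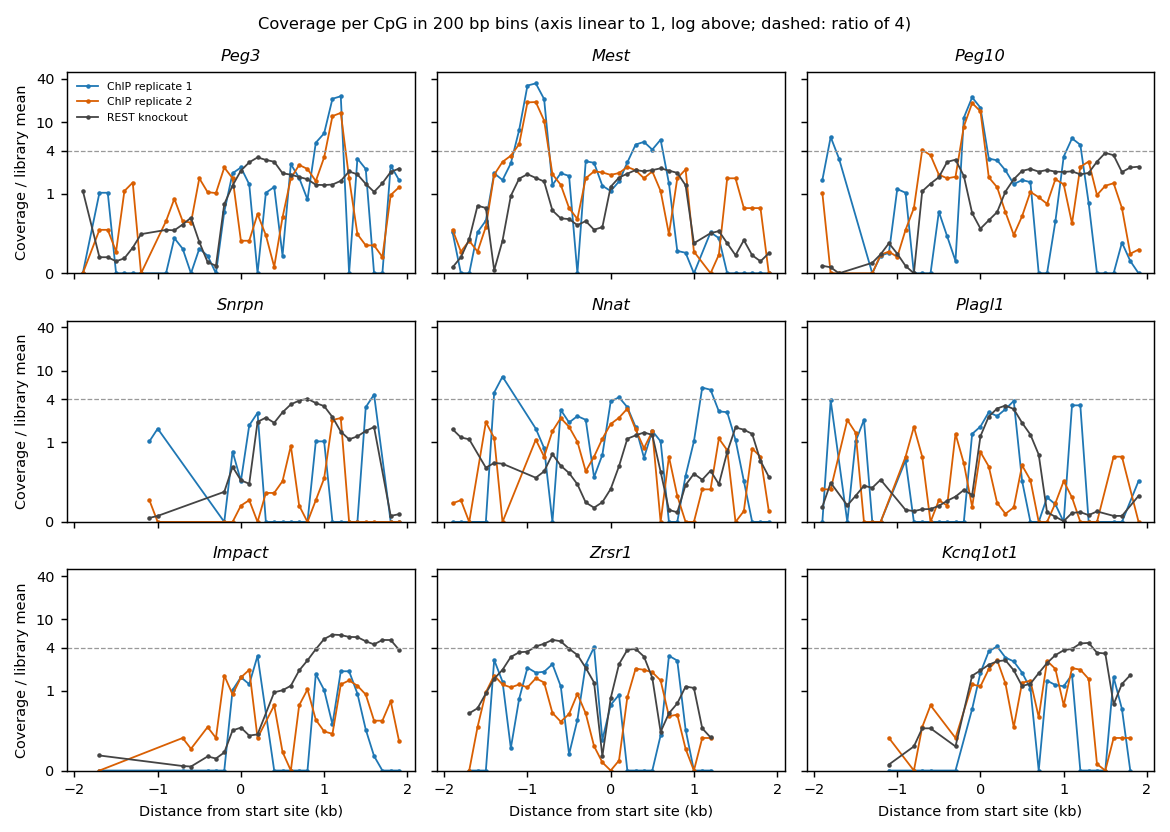
Coverage per CpG in bins of 200 bp, divided by the mean coverage of the library (y axis, linear to 1 and logarithmic above), against the distance from the TSS in kb (x axis) for the 9 promoters. Blue and orange lines are the ChIP-BisSeq replicates, the dark line is the REST knockout library and the dashed line marks a ratio of 4. Both replicates peak at Peg3, Mest and Peg10, at 13.4 to 34.6 times the mean.

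Molecules pulled down at the Mest and Peg3 peaks were almost free of methylation. In the Mest bin 0 of 269 observations were methylated in replicate 1, which allows a share of up to 1.36%, and 1.79% of 279 in replicate 2, compared to 14.8% of 263 in the REST knockout library. In the Peg3 bin 1.12% of 89 and 0 of 98 observations were methylated in the replicates, the latter allowing up to 3.69%, compared to 19.2% of 120. In the Peg10 bin the levels were 1.23% of 243 and 7.85% of 382 observations, compared to 14.1% of 170.

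The most covered bin of each window with an enriched bin was then compared with the REST knockout library, a comparison added after the data were seen, by Fisher's exact test on CpGs covered in both libraries with Benjamini-Hochberg adjustment over the 4216 of 5625 such windows with at least 20 observations in each library. The Mest bin was lower in replicate 1 by 14.8 percentage points (adjusted p = 1.63e-11, Fisher's exact test) and in replicate 2 by 13 (adjusted p = 2e-07). By the same exact test, the Peg3 bin was lower by 16.9 (adjusted p = 0.000643) and 19.2 percentage points (adjusted p = 6.5e-06). The Peg10 bin was lower by 11.4 in replicate 1 (adjusted p = 3.72e-05), but the difference of 6.26 in replicate 2 did not pass this exact test (adjusted p = 0.0739). Thus 2 of 3 bins were lower in both replicates, beside 17.8% of all other tested bins and 38.9% of the 1381 with at least 10% methylation in the REST knockout library. Observations on the same read are not independent, so these p-values are too small, and they compare libraries that differ in genotype, strain and assay.

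The closest match to the CTCF consensus within 100 bp of the 3 bins differed from it at 1 position at Peg3 (chr7:6681976-6681988), 2 positions at Peg10 and 3 positions at Mest. Near the most covered bins of the other 6 promoters it differed at 1 position at Impact, 2 at Plagl1 and Zrsr1, and 3 at Snrpn, Nnat and Kcnq1ot1. At most 1 mismatch was found in 45% of the top bins of other enriched windows and in 7.63% of those of windows without enrichment. An exact match on either strand was found in 0 of the 9 windows and in 12.2% of other windows.

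Over the whole windows, the replicates of ChIP-BisSeq did not give a common picture. Passing the exact test against the REST knockout library, in either direction, was common among other windows. An adjusted p under 0.05 was reached by 41.1% of them in replicate 1 and 47.6% in replicate 2. Only Peg3 and Mest were lower than the REST knockout library in both replicates with an adjusted p under 0.05 in each, as were 1180 of 14779 other windows. At Peg3, 3.2% of 219 observations were methylated in replicate 1, 22.8 percentage points below the REST knockout level at the same CpGs (adjusted p = 1.8e-15, Fisher's exact test over 14793 windows), and 13.7% of 278 in replicate 2, 12 points below (adjusted p = 3.83e-05). At Mest, 4.99% of 461 and 10.4% of 559 observations were methylated, 11.7 points (adjusted p = 1.38e-10) and 8.32 points below (adjusted p = 1.12e-05, exact test). These differences changed when the CTCF peaks were left out, that is, CpGs within 200 bp of an enriched bin, an alternative added after the data were seen. Mest was then methylated at 16.1% of 143 observations in replicate 1 and 21.6% of 204 in replicate 2, compared to 17.1% and 18.6% at the same CpGs of the REST knockout library (adjusted p = 0.911 and 0.419, Fisher's exact test over 13588 windows). Peg3 had 0 of 60 methylated observations in replicate 1, compared to 30.4% (adjusted p = 6.37e-08, exact test), but 26.9% of 130 in replicate 2, compared to 28.4% (adjusted p = 0.852). Outside the peaks, neither promoter was thus lower in both replicates by this test.

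Nnat, Impact, Zrsr1 and Snrpn lay above the REST knockout library in both replicates, with a wide gap between the replicates. Among other windows, 42.5% were lower than that library in replicate 1 and 36% in replicate 2. Their median differences were 1.26 and 2.12 points upward, so lying above it was common. Nnat was 13.3 points higher in replicate 1 (adjusted p = 0.00526) and 33.4 in replicate 2 (adjusted p = 1.35e-15, exact test). Impact was 4.45 points higher in replicate 1 (adjusted p = 0.188) and 40.6 in replicate 2 (adjusted p = 4.42e-35), and Zrsr1 4.93 (adjusted p = 0.186) and 27.7 points (adjusted p = 4.19e-16, exact test). Snrpn had 26 and 28 observations in the replicates, and its differences of 21.1 and 7.13 points did not pass the exact test (adjusted p = 0.0697 and 0.429). Plagl1, Peg10 and Kcnq1ot1 were lower in replicate 1, by 11.9, 10.6 and 12.6 points, and higher in replicate 2, by 22.1, 4.71 and 7.58 points. As in the bins, observations on the same read are not independent. The p-values over windows, with or without the peaks, are therefore too small.

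A call required an adjusted p under 0.05 and a difference of at least 20 points in both replicates. It was met by 0 of 9 promoters in the lower direction, beside 0.886% of other windows, and by 0 of 9 in the higher direction, beside 1.78%. A decrease of 20 points in both replicates was possible at 3 of the 9 promoters only, since the REST knockout level at the CpGs compared was below 20% for at least 1 replicate at the others. Without replicate 2, Peg3 was called lower, beside 1.63% of other windows, and without replicate 1, Nnat, Plagl1, Impact and Zrsr1 were called higher, beside 6.65%.

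**Figure D4:**
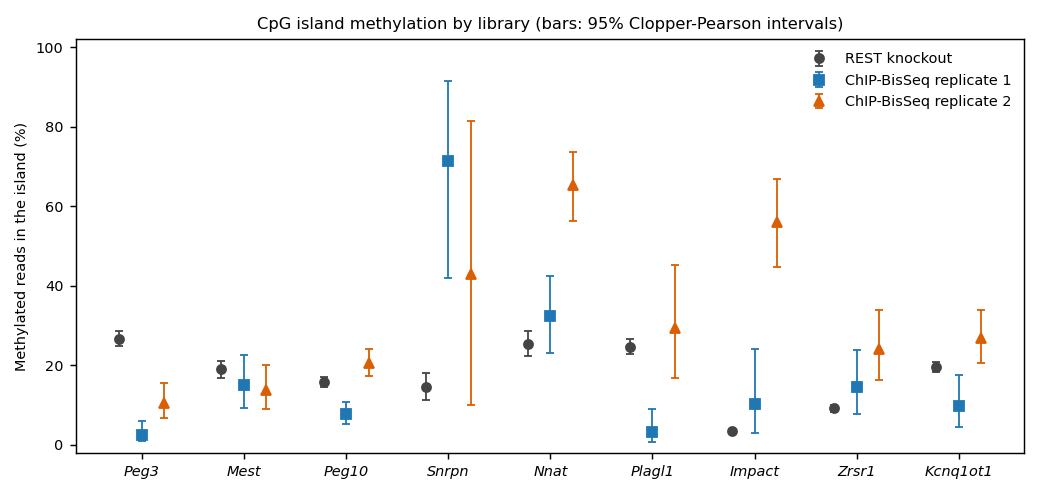
Methylation level of the CpG island (y axis, percent of methylated observations) at each promoter (x axis) in the REST knockout library (dots) and the ChIP-BisSeq replicates 1 (squares) and 2 (triangles), with exact 95% intervals from counting. Replicate 2 lies above replicate 1 at Nnat (65.3% and 32.3%) and Impact (56% and 10.3%), and both lie below the REST knockout library at Peg3 (10.6% and 2.58%, compared to 26.7%).

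The replicates were therefore compared with each other, again after the data were seen, on CpGs covered in both. Of the 7 promoters with at least 20 observations in each, 2 differed by at least 20 points with an adjusted p under 0.05, beside 3.88% of other windows. Nnat was methylated at 34.7% in replicate 1 and 59.5% in replicate 2 (adjusted p = 0.0136, Fisher's exact test), and Impact at 5.13% and 28.9% (adjusted p = 0.0409). The smallest difference was at Mest, with 5.32% and 6.82% (adjusted p = 0.667, exact test). These p-values are too small as well, since observations on the same read are not independent. Replicate 2 was higher at each of the 7 promoters, by 1.5 to 24.8 points, where the median difference over other windows was 0. Among other windows called, 154 were higher in replicate 2 and 341 in replicate 1.

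All 9 windows contained TGCCGC, with 2 matches at Zrsr1, 3 at Peg10 and Kcnq1ot1, 5 at Impact, 6 at Plagl1, 8 at Peg3 and Nnat, 10 at Snrpn and 12 at Mest. The median was 6 matches on both strands together. Of 21407 other windows 53.7% held a match, with a median of 1, and 1.05% held 6 or more. Among other windows with an island this share was 1.37%. The island held 10 of the 12 matches at Mest and 7 of 8 at Peg3, but 5 of 10 at Snrpn. AANATGGC, a core that the zinc finger factor YY1 binds, occurred in 6 of 9 windows and in 50.9% of other windows. The Peg3 window held 5 of its matches, each on the strand opposite to the gene. None of these 5 contained a whole CpG, but the last base of each was the C of a CpG. A match describes the sequence and not binding.

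**Figure D5:**
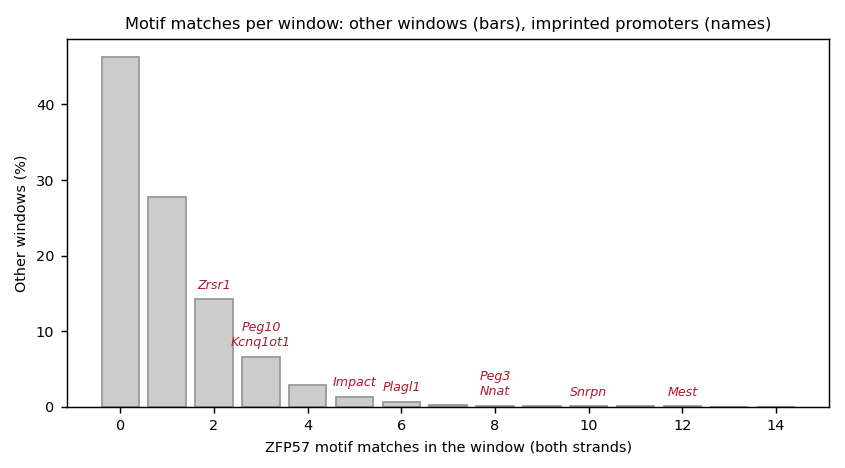
Share of other windows (y axis, percent) by the number of matches to the ZFP57 motif on both strands (x axis), with the 9 imprinted promoters named at their own number. Mest with 12 and Snrpn with 10 matches lie at the far right, and Zrsr1 with 2 matches lies where 14.2% of other windows do.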

How the data were processed

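The authors deposited, for each library, whole-number counts per CpG, all observations and methylated observations, after aligning reads to mm9. The submitters' processing notes name Bowtie 0.10.0.1. Whether PCR duplicates were removed is not given in the sources used here. CpGs without an observation are not listed and were set to 0.

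Counts were summed in Python 3.11.15 (SciPy 1.17.1, NumPy 2.4.6, pandas 2.3.3). The TSS was the GENCODE vM1 transcript start with the most CpGs within 2 kb. Kcnq1ot1 was placed by a single exact match of its RefSeq promoter sequence (GRCm38.p6 table). Islands were merged windows of 200 bp with a GC content of at least 50% and observed/expected CpG of at least 0.6. The island with the most CpGs within 2 kb of the TSS was used, cut at that distance. Islands needed 50 observations, and windows and bins tested 20 per library. Bins stepped by 100 bp and held at least 2 CpGs. The 3 windows overlapping the promoters were left out of the background. Named genes were all 9 promoters, neighbours at 30% to 70% (0 found), 3 paternally methylated loci and the 8 other windows with the highest share of island CpGs at 30% to 70%, among islands with at least 20 CpGs covered 10 times. The Fisher test was run on simulated counts with independent observations, in which the windows changed were more methylated than these promoters. The simulation therefore does not cover the test as used here. Members and lists were chosen with earlier results of these data known. Replicates are separate libraries whose cultures the labels do not tell apart, so their spread may be technical. Alternatives are given below. Figures were drawn with matplotlib 3.10.9.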

Additional observations from a re-analysis of the deposited data

How the results depend on the processing

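The count of islands at 30% to 70% in the REST knockout library was 0 with limits of 40% to 60%, with means over CpGs covered at least 5 or 10 times, with the 5′ most TSS and without CpGs covered over 96 times. It was 1 when all CpGs within 2 kb (20.7% of other windows) or within 500 bp (14.1%) were counted, and 3 with limits of 20% to 80% (12.5%). The count at 10% or more was 6 to 8 under its alternatives, which were chosen after the data were seen, beside 23.4% to 63.2% of other windows, and the 8 within 2 kb stand beside 63.2%. Promoters lower in ChIP-BisSeq numbered 1 with a required difference of 10 percentage points (2.53% of other windows), 0 to 1 when a replicate was left out, and 0 under each of the other alternatives tried. Promoters higher, an alternative added after the data were seen, numbered 1 at a coverage of at least 5 (0.423%) or a difference of 10 points (6.5%), and 4 without replicate 1 (6.65%). Enriched bins were found at 5 promoters with a ratio of 2 (52.4% of other windows), at 3 to 7 when a replicate was left out (36.2% to 58.6%), and at 2 to 4 otherwise (17.8% to 36.4%). The median level of the windows was 18.7% to 19.3% under each alternative but the 5′ most TSS, where it was 26.7%, since the 5′ most starts of Mest and Snrpn lie elsewhere, at 73.4% and 61.5%. Of 45 levels of single windows under alternatives, 15 lay outside the counting interval of the main value, and Impact moved from 4.33% to 11.2% within 1 kb and to 6.76% as a mean over CpGs covered at least 5 times. No paired analysis was possible, since the REST knockout group has 1 library, from cells of another genotype and strain than the ChIP-BisSeq replicates. The Snrpn window had 27 and 30 observations in the ChIP-BisSeq replicates, which gives intervals of 22.4% to 61.2% and 9.93% to 42.3%.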
